A study of Ovis aries with 6 samples.

Results

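Cyclin D2 (CCND2), the cyclin-dependent kinase inhibitors p21 (CDKN1A) and p18 (CDKN2C), and the growth-arrest and p53-linked genes BTG2, GADD45G and BAX were followed in primary ovine granulosa cells after knockdown of INHBA. The genes were taken by symbol from the authors' deposited table, and all 6 were found among its 1620 genes. Ovaries of sexually mature Hu sheep (Ovis aries) from a slaughterhouse supplied granulosa cells from follicles of at least 3 mm, and the cells were grown in culture. The siINHBA group received a small interfering RNA against INHBA by lipofection, and the siNC group received a negative control the same way. RNA was taken 24 h later, with 3 libraries in each group, and poly(A) RNA was sequenced. The labels name no animal or culture for a library, so each p-value reflects nothing beyond library-to-library spread, and that spread may be technical.

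Entry into the cell cycle is set by D-type cyclins, which bind CDK4 or CDK6 and start the phosphorylation of the retinoblastoma proteins that hold back E2F transcription factors. Cyclin D2 is the D-type cyclin best known from granulosa cells, where work in rodents links it to proliferation driven by follicle-stimulating hormone and activin. It is opposed by inhibitors of the INK4 family, such as p18, which bind CDK4 and CDK6, and of the Cip/Kip family, such as p21, which act on cyclin-CDK complexes more widely. CDKN1A, BTG2 and BAX are textbook targets of p53. GADD45G belongs to a stress-response family whose sister gene GADD45A is the better known p53 target.

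The table holds only genes that the authors called changed, which sets how each call below reads. Its highest adjusted p is 0.0090 and its smallest absolute log2 fold change 1.001, in the authors' deposited table. All 1620 genes also passed an adjusted p of 0.05 with edgeR's quasi-likelihood test (100%), 555 as higher in siINHBA (34.3%) and 1065 as lower (65.7%), so a pass by a gene of the table says little by itself. Counts over the listed genes summed to 2781548 to 2948524 in siNC and to 1590871 to 2042924 in siINHBA, while the relative sequencing depth, read off as count divided by FPKM (fragments per kilobase of transcript, scaled to library size), ran from 0.952 to 1.17. The siRNA target INHBA, the activin and inhibin beta A subunit, was at 21.2, 21.8 and 18.5 FPKM in the siNC libraries and at 8.02, 6.51 and 7.54 FPKM in the siINHBA libraries. The siINHBA mean was 35.9% of the control mean, with no overlap between the groups and a log2 change of -1.49 (SE 0.14, edgeR adjusted p = 3.9e-06). With TMM, a scaling over the listed genes, it was -0.41 (edgeR adjusted p = 0.018), so the depth of the knockdown depends on the scaling.

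Of the 6 genes, 4 were higher in siINHBA (CDKN1A, BTG2, BAX and CDKN2C) and 2 were lower (CCND2 and GADD45G). This recount of authors' calls stands beside 34.3% higher and 65.7% lower over the table, and with TMM 4 of the 6 passed against 56.7% of the table. In none of the 6 did the groups overlap, a property shared by 99.9% of the listed genes. The changes were of ordinary size for the table. All 4 rises were smaller than the median rise of 2.80-fold over the 555 higher genes. The fall of CCND2 was at the median fall of 2.64-fold over the 1065 lower genes, at rank 534, and that of GADD45G was smaller. An exact permutation test of 3 against 3 libraries gave p = 0.1 for each gene, the smallest two-sided p that this design allows.

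**Figure D1:**
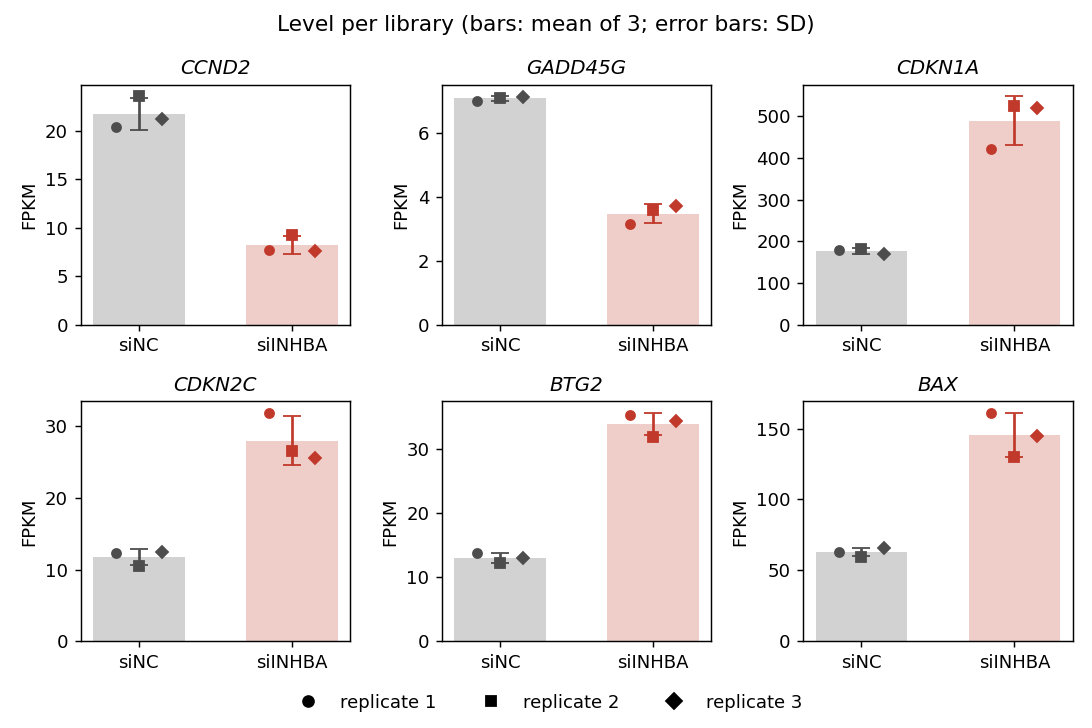
Level in FPKM (vertical axis) of each gene in the 3 siNC and 3 siINHBA libraries (points, shaped by replicate number), with group means (bars) and SD (error bars). CCND2 and GADD45G lie lower and the other 4 genes higher in every siINHBA library than in any siNC library. With TMM scaling CCND2 did not pass and the GADD45G difference changed sign.

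CCND2, the G1 cyclin, was measured at 20.4, 23.6 and 21.2 FPKM in the siNC libraries and at 7.72, 9.28 and 7.63 FPKM in the siINHBA libraries. The counts behind these levels were 649, 771 and 709 against 234, 307 and 285. The second library of each group was the highest, and the lowest siNC library was 2.20 times the highest siINHBA library. The mean fell from 21.7 ± 1.63 to 8.21 ± 0.92 FPKM (SD, n = 3), to 37.8% of control, which is a log2 change of -1.40 (SE 0.14, edgeR adjusted p = 7.3e-06). The authors' deposited log2 fold change was -1.42. The size of the fall and its call depend on the scaling. TMM assumes that most genes do not change, whereas every listed gene was selected for change. With TMM factors taken over the listed genes, which raise the median change of the table by 1.09 on the log2 scale, CCND2 stood at -0.31 and did not pass (edgeR adjusted p = 0.080, against 22.5% of listed genes passing as lower).

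CDKN1A encodes p21, which binds and inhibits cyclin-CDK complexes. It was measured at 180.1, 182.2 and 169.2 FPKM across siNC and 421.5, 525.3 and 519.95 FPKM in siINHBA. The first siINHBA library was the lowest of its group and still 2.31 times the highest siNC library. The mean rose from 177.2 ± 6.98 to 488.9 ± 58.5 FPKM (SD, n = 3), which is a log2 change of 1.46 (SE 0.12, edgeR adjusted p = 2.0e-06). CDKN1A was already the most abundant of the 6 genes per length in siNC, at rank 18 of the 1620 listed genes by mean FPKM, and it stood at rank 4 in siINHBA. Its share of all counts on listed genes went from 0.560 to 0.591% in the siNC libraries to 2.30 to 2.73% in the siINHBA libraries, a denominator that was itself smaller in siINHBA.

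CDKN2C encodes p18, an INK4 protein that binds CDK4 and CDK6. It was measured at 12.3, 10.5 and 12.4 FPKM across siNC, against 31.9, 26.5 and 25.5 FPKM in siINHBA. Here the first siINHBA library was the highest, opposite to CDKN1A. The mean rose from 11.8 ± 1.09 to 28.0 ± 3.41 FPKM (SD, n = 3), which is a log2 change of 1.19 (SE 0.13, edgeR adjusted p = 1.0e-05). Its lowest siINHBA library was 2.05 times its highest siNC library.

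BTG2, an antiproliferative protein that recruits the deadenylase machinery to messenger RNAs, was measured at 13.8, 12.3 and 13.1 FPKM across siNC, against 35.3, 32.0 and 34.4 FPKM in siINHBA. It had the tightest siINHBA group of the 6 genes, with a coefficient of variation of 5.17%. The mean rose from 13.05 ± 0.78 to 33.9 ± 1.75 FPKM (SD, n = 3), which is a log2 change of 1.38 (SE 0.11, edgeR adjusted p = 1.6e-06).

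BAX, the BCL2-family protein that permeabilises the outer mitochondrial membrane, was measured at 63.0, 59.8 and 65.6 FPKM across siNC, against 161.1, 130.1 and 144.96 FPKM in siINHBA. The mean rose from 62.8 ± 2.94 to 145.4 ± 15.5 FPKM (SD, n = 3), which is a log2 change of 1.21 (SE 0.11, edgeR adjusted p = 4.3e-06). The first siINHBA library was the highest for BAX, as for CDKN2C and BTG2. BAX moved from rank 65 to rank 20 of the listed genes by mean FPKM.

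GADD45G, a small acidic protein that binds MAP3K4 and cell-cycle regulators, was measured at 6.99, 7.08 and 7.12 FPKM across siNC, against 3.13, 3.58 and 3.70 FPKM in siINHBA. Its siNC libraries lay within a coefficient of variation of 0.922%, less than the 4.39% that counting alone gives at its mean count, so their closeness should not be read as precision. The mean fell from 7.06 ± 0.065 to 3.47 ± 0.30 FPKM (SD, n = 3), to 49.1% of control, which is a log2 change of -1.02 (SE 0.14, edgeR adjusted p = 4.5e-05). GADD45G lies near the edge of the authors' selection: their deposited table gives it a log2 fold change of -1.05, and only 143 listed genes have a smaller absolute change there. With TMM its log2 fold change was 0.07 and did not pass (edgeR adjusted p = 0.74), so neither its direction nor its call holds under that scaling.

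Read counts of the 6 genes ran from 214 (GADD45G, first siINHBA library) to 55769 (CDKN1A, siINHBA library 3), and depth was not the main limit for the abundant ones. For CDKN1A counting error alone gives a coefficient of variation of 0.459% in siINHBA, and the libraries varied by 12.0%. For CCND2 the same figures were 6.03% and 11.3%. For GADD45G they were 6.16% and 8.61%, so most of its siINHBA spread is within reach of counting error. Under every scaling and tool tried, CDKN1A, CDKN2C, BTG2 and BAX passed as higher. With TMM their log2 fold changes were 2.55, 2.28, 2.46 and 2.30. TMM moves changes upward, and 555 listed genes passed as higher with it as without it, so that pass adds no support.

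**Figure D2:**
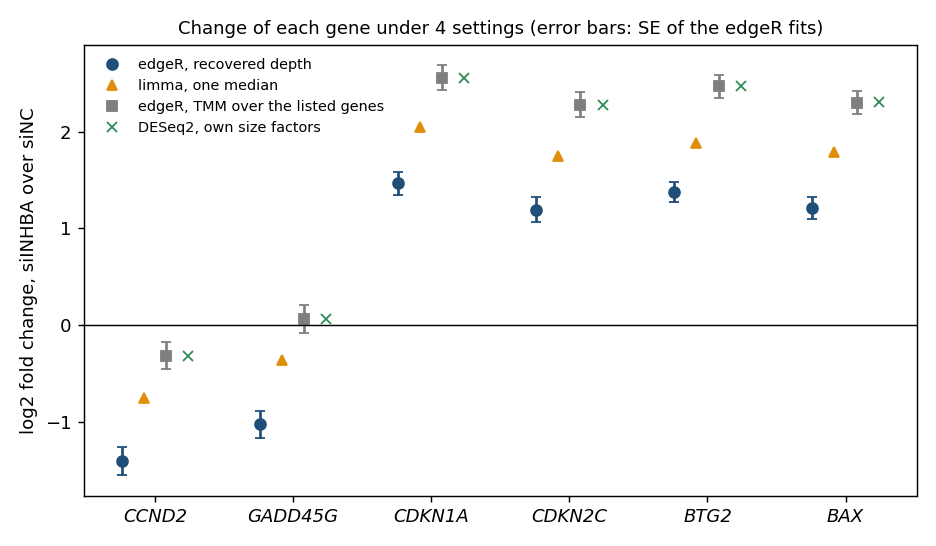
Log2 fold change of siINHBA over siNC (vertical axis) for each gene (horizontal axis) with the recovered depth, with limma on libraries scaled to one median, with TMM over the listed genes and with DESeq2's own size factors; error bars are the SE of the edgeR tests. CDKN1A, CDKN2C, BTG2 and BAX stay above 0 under all 4, CCND2 moves from -1.40 to -0.31 with TMM, and GADD45G moves from -1.02 to 0.07.

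A ratio of 2 genes within a library does not depend on how libraries are scaled, so the cyclin was set against its inhibitors that way. FPKM is per length, and the length behind it is the authors': from count over FPKM, the length used for CDKN1A was 2.87 times that used for CCND2. In siNC the CDKN1A level was 8.82, 7.73 and 7.97 times the CCND2 level. In siINHBA it was 54.6, 56.6 and 68.1 times the CCND2 level. The log2 ratio of CCND2 to CDKN1A went from -3.03 ± 0.099 to -5.89 ± 0.17 (SD, n = 3), a change of -2.87 or a 7.29-fold fall in the ratio. Both genes were selected for change, in opposite directions, from a table whose smallest absolute log2 fold change is 1.001. A large fall in the ratio with separated groups was therefore set by the selection and is no separate result.

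The same ratio was formed between CCND2 and each of the other genes, and no test was run on these ratios. CCND2 exceeded CDKN2C per length in every siNC library, by 1.65, 2.24 and 1.71 times. In siINHBA the order was inverted, with CDKN2C 4.13, 2.86 and 3.35 times CCND2. CCND2 likewise exceeded BTG2 in siNC, by 1.48, 1.92 and 1.63 times, and BTG2 exceeded CCND2 in siINHBA, by 4.58, 3.44 and 4.51 times. BAX was above CCND2 throughout, by a mean factor of 2.90 ± 0.32 in siNC and 18.0 ± 3.53 in siINHBA (SD, n = 3).

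Within the 4 higher genes the balance moved little. All 6 ratios between them overlapped between the groups, and their mean log2 change was between 0.04 and 0.25 in size, the largest being CDKN1A over BAX. All 8 ratios between a lower and a higher gene were separated, with log2 changes between 2.24 and 2.87 in size, which follows from the directions of the members. The ratio of CCND2 to GADD45G, the pair of lower genes, went from 3.08 to 2.37 on average, a log2 change of -0.38. Its groups did not overlap, and the SD of the log2 ratio was 0.10 in siNC and 0.17 in siINHBA. The level of CCND2 relative to GADD45G was thus lower in every siINHBA library, a difference that does not depend on the scaling.

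**Figure D3:**
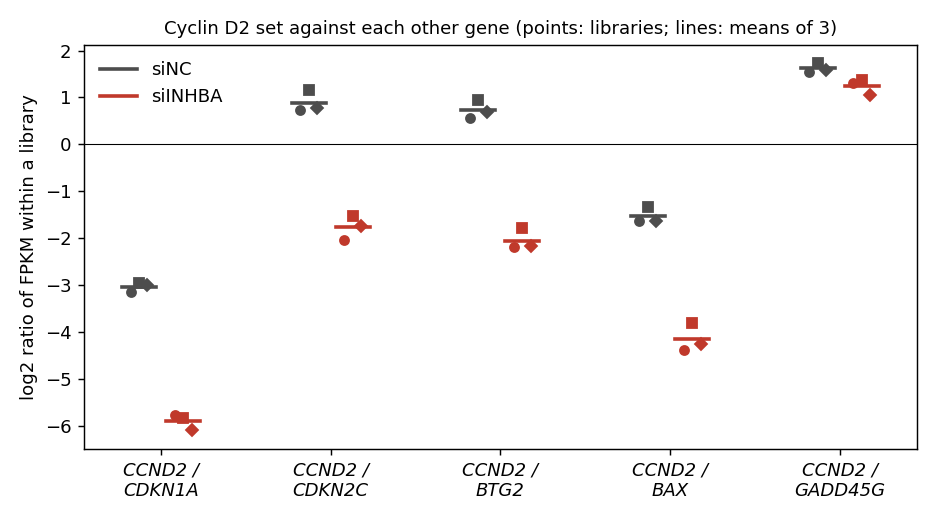
Log2 ratio of CCND2 FPKM to that of CDKN1A, CDKN2C, BTG2, BAX and GADD45G within each library (points, shaped by replicate number; lines are means of 3). The siINHBA libraries lie 2.62 to 2.87 log2 units below the siNC libraries for the first 4 ratios and 0.38 below for GADD45G.

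Around cyclin D2, 5 of 17 genes in a list of G1 cyclins, kinases and pocket proteins were in the table, and all 5 were lower, beside 65.7% of all listed genes. Their median log2 fold change was -1.40, which is the value of CCND2 itself. The median over the 1065 lower genes of the table was also -1.40, so the list fell by an ordinary amount. CDK6, a kinase partner of cyclin D2, fell from 4.66 ± 0.22 to 1.65 ± 0.35 FPKM (log2 fold change -1.4996, SE 0.16, edgeR adjusted p = 8.2e-06). CCNE2, a cyclin of CDK2, stood at -1.62, the pocket protein RBL1 at -1.26 and the transcription factor E2F1 at -1.08. With TMM, where 22.5% of the table passed as lower, CDK6 alone did (edgeR adjusted p = 0.029), E2F1 stood at 0.0041, and at an unadjusted p under 0.05 CCND2 joined CDK6. CCND1, CCND3 and CDK4 were not among the listed genes, so the level of the other D-type cyclins was not analysed here.

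Of 8 CDK inhibitors 3 were listed, 2 higher and 1 lower, too few to set against 34.3% higher and 65.7% lower over the table. Beside CDKN1A and CDKN2C this was CDKN3, a phosphatase that acts on CDK2 despite sharing the family's name, and it fell from 2.90 ± 0.18 to 0.83 ± 0.26 FPKM (log2 fold change -1.81, SE 0.24, edgeR adjusted p = 4.2e-05), with TMM -0.72 (edgeR adjusted p = 0.026). A further INK4-type gene, LOC114113021, was noticed after its values were seen: the deposited annotation describes it as CDKN2A-like, and its closest Swiss-Prot entry there is the CDK4 inhibitor B. It went opposite to CDKN2C, from 18.8 ± 3.31 to 6.72 ± 2.01 FPKM (log2 fold change -1.47, SE 0.23, edgeR adjusted p = 1.1e-04), but did not pass with TMM (-0.39, edgeR adjusted p = 0.17). Its reads may be shared with close relatives of the same family.

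The list of p53 targets and regulators had 5 of 30 genes in the table, and all 5 were higher, under the recovered depth and under TMM alike, beside 34.3% of listed genes in both. MDM2, the ubiquitin ligase that degrades p53 and is itself a p53 target, rose from 6.87 ± 0.77 to 15.9 ± 2.14 FPKM. PMAIP1, which encodes the BH3-only protein NOXA, rose from 1.76 ± 0.32 to 4.16 ± 0.88 FPKM. The other 3 were CDKN1A, BTG2 and BAX, already described, so the count in part repeats those genes. The remaining 25 genes of that list, GADD45A, SESN1 and PPM1D among them, were not in the table. The list was chosen with earlier results of these data known, so its count depends on how it was drawn. It does not hold TP53I3, IGFBP3, GTSE1, ATM or SESN3, genes of the wider KEGG p53 pathway that were lower. It is thus no count of every p53-linked gene in the table, and the pathway's genes in both directions are counted next.

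The deposited annotation places 26 listed genes in the wider KEGG p53 pathway, of which 7 were higher and 19 lower, near the 34.3% higher and 65.7% lower of the whole table. With TMM 7 were higher and 8 lower, beside 34.3% and 22.5% over the table, so these counts are no result about the pathway. CCND2, GADD45G, CDKN1A and BAX are among them. The lower genes include cyclins and CDK1. They also include TP53I3 (-1.01), IGFBP3 (-1.41), GTSE1 (-1.14), ATM (-1.18) and SESN3, named here after their values were seen. With TMM IGFBP3 passed as lower (-0.32, edgeR adjusted p = 0.041), and TP53I3, GTSE1 and ATM did not pass. The sestrin gene SESN3 fell from 3.24 ± 0.15 to 0.64 ± 0.11 FPKM and was lower with TMM as well (log2 fold change -1.26, edgeR adjusted p = 2.3e-05). A copy annotated as Mdm2-like, LOC101103187, was higher at 1.24, and its reads may be split with MDM2.

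In the antiproliferative and GADD45 list 5 of 16 genes were listed, 2 higher and 3 lower, near the 34.3% and 65.7% of the whole table. BTG2 rose, whereas TOB2, a related antiproliferative protein of the same BTG/TOB family, stood at -1.004. KLF4 rose by 1.498 on the log2 scale from 0.28 to 0.74 FPKM, a low level. FOXO3, a forkhead factor that can induce CDK inhibitors, was at -1.13. With TMM none of the 3 lower genes passed, and TOB2 (0.09) and GADD45G (0.07) were just above 0. At an unadjusted p under 0.05 the count lower in that list was also 0, with edgeR and with DESeq2's own size factors alike.

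The BCL2 family had 4 of 21 genes listed, 3 higher and 1 lower, too few to set against the 34.3% and 65.7% of the table. BCL2A1, an antiapoptotic member, had a log2 fold change of 2.65 (SE 0.41) from 21, 4 and 18 counts in siNC to 90, 85 and 104 in siINHBA, so its fold is imprecise. The proapoptotic BAX and PMAIP1 were higher with it. HRK, another BH3-only gene, was lower at -2.11 (SE 0.35), with 12, 12 and 13 counts in siINHBA. BCL2, BCL2L1 and MCL1 were not in the table.

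**Figure D4:**
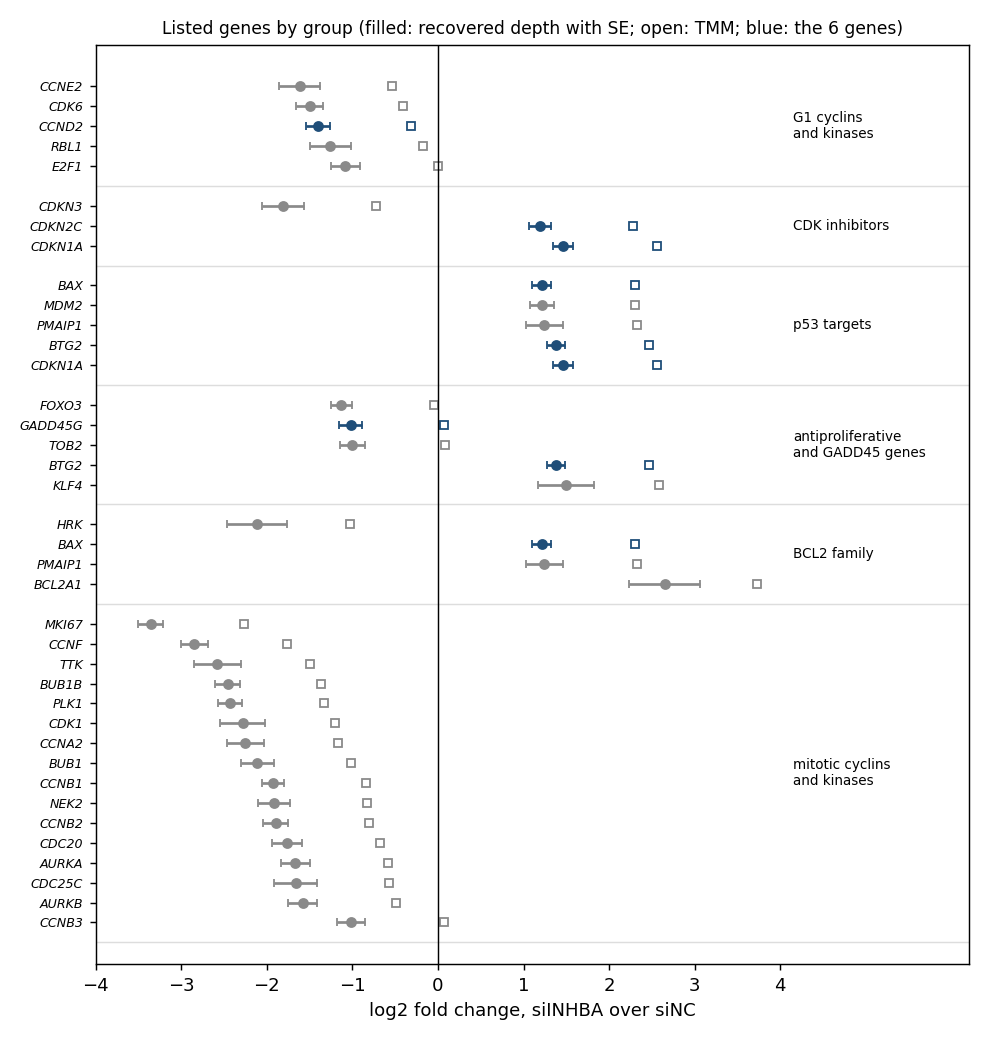
Log2 fold change of siINHBA over siNC (horizontal axis) of every listed gene in 6 gene lists, with the recovered depth (filled, SE bars) and with TMM (open); the 6 genes described here are in blue. All 5 genes of the p53 target list, CDKN1A, BTG2 and BAX among them, lie above 0 under both scalings. TMM moves changes upward, and 555 listed genes passed as higher under each, so this is no separate support. All 16 mitotic genes lie below 0 with the recovered depth, and CCNB3 is at 0.08 with TMM.

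Downstream of G1, the table held 16 of 19 mitotic cyclins and kinases, and each of the 16 fell, beside 65.7% of all listed genes. Their median log2 fold change was -2.02, and each but CCNB3 fell further than CCND2. With TMM 14 passed as lower, beside 22.5% of the table. The largest falls were those of the proliferation marker MKI67 at -3.36 (SE 0.14), of CCNF, which encodes cyclin F, at -2.85 (SE 0.16), and of the spindle checkpoint kinase TTK at -2.58 (SE 0.27).

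Genes with profiles closest to those of CCND2 and CDKN1A were sought over the 6 libraries, as the distance between log2(FPKM + 0.1) profiles centred on the siNC mean, among 559 named genes with a mean of at least 5 FPKM. Nearest to CCND2 were CDH3, which encodes P-cadherin, FAM129A and UBAP2, at distances of 0.143, 0.144 and 0.173 against a median of 0.763. Nearest to CDKN1A were the actin-bundling FSCN1 and the NF-kB subunit NFKB2, at 0.147 and 0.173 against a median of 4.53. The distance mostly reflects the size of the difference between the groups.

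Every listed gene was called changed, and 65.7% of the listed genes were lower, so the lower markers below stand beside that share. Of 11 granulosa markers 4 were listed (INHA, NR5A1, CYP11A1 and the siRNA target INHBA itself), all lower, with a summed level of 193 to 207 FPKM over the siNC libraries and 62.9 to 79.7 FPKM over the siINHBA libraries. Of 9 theca and stroma markers 2 were listed (63.0 to 65.9 FPKM against 16.1 to 21.6), and of 5 epithelial markers 2 (31.9 to 33.6 FPKM against 12.5 to 12.7). Of 5 endothelial markers 2 were listed, at a low sum of 0.569 to 0.679 FPKM in siNC and 0.117 to 0.213 FPKM in siINHBA. Of 5 leukocyte markers 1 was listed, at 0.422 to 0.462 against 0.176 to 0.231 FPKM. Levels of the unlisted markers are not known, because the table holds only called genes. With TMM, where 22.5% of the table passed as lower, NR5A1, 1 epithelial marker, 1 endothelial marker and the leukocyte marker did not pass. None of the listed markers was at 0. FSHR, CYP19A1, AMH and FOXL2, which define granulosa cells, are not in the table. The labelled cell type could therefore be checked only in part. In bulk RNA fewer cells of a type and less RNA per cell cannot be told apart, and the part of these markers in the differences of the 6 genes was not tested.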

How the data were processed

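RNA sequencing of 3 siINHBA and 3 siNC libraries was analysed. Per the file headers, the authors deposited, for each gene, raw counts and FPKM values in every library, with their own adjusted p-value and log2 fold change. Not given in the sources used here: aligner, counter, test, strand setting and genome build. Hence no coordinates or sequences are printed. The table has 1620 genes; 4 incomplete lines were left out. In the RefSeq annotation of sheep, CCND2 overlaps LOC105608579 and BAX overlaps TULP2, and without a known strand setting reads of such pairs may be mixed; neither partner is in the table.

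The quasi-likelihood test of edgeR 4.0.16 was applied to counts (R 4.3.3; glmQLFit, glmQLFTest, filterByExpr with a minimum count of 10, no block), with Benjamini-Hochberg adjustment over all 1620 genes and a threshold of 0.05. Library size was the depth recovered as the median ratio of count to FPKM over the 702 genes whose counts exceed 200 throughout, because TMM assumes that most genes do not change and every listed gene was selected for change. The SE is the absolute log2 fold change over the square root of F. The script was tested on simulated data. Replicate pairs differed by more than counting noise (mean chi-square per gene 5.33 to 8.75 in siNC and 17.6 to 47.4 in siINHBA). Single values were compared with an exact permutation test in scipy 1.17.1. Alternatives were TMM, DESeq2 1.42.0, limma 3.58.1 on log2(FPKM + 1) and log2(FPKM + 0.1), filters, a robust prior, a replicate block and leaving out each library.

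The genes and gene lists were chosen with earlier results of these data known. Named genes are the 6 genes, INHBA, every listed member of the G1, CDK inhibitor, p53, antiproliferative and BCL2 lists, the 3 largest changes of the mitotic list and the 3 nearest profiles of CCND2 and CDKN1A. Others are said to have been chosen after their values were seen. Some genes that these rules would name are not reported here.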

Additional observations from a re-analysis of the deposited data

How the results depend on the processing

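CDKN1A, CDKN2C, BTG2 and BAX kept direction and call in all alternatives, and CCND2 and GADD45G in all but TMM over the listed genes and DESeq2 with its own size factors. There CCND2 stood at -0.31 and -0.32 and did not pass, and GADD45G reversed to 0.068 and 0.068, so 0 of the 6 genes were called lower in edgeR (1 at an unadjusted p under 0.05, CCND2) and 0 with DESeq2 (likewise 1); both set the median listed gene near no change by construction. They passed 919 and 914 of the 1620 genes, 364 and 359 as lower. Under both, 1 G1 gene, 0 antiproliferative genes, 1 endothelial, 0 leukocyte and 1 epithelial marker were called lower, and with DESeq2 0 BCL2 genes were. E2F1 (0.0041 and 0.00023), TOB2 (0.086 and 0.084) and CCNB3 (0.076 and 0.077) changed sign. With a minimum of 5 FPKM fewer genes were tested: 611 passed, 200 higher and 411 lower, with 1 G1 gene, 0 CDK inhibitors, 0 BCL2 genes, 6 mitotic, 0 endothelial and 0 leukocyte genes lower and 1 antiproliferative and 1 BCL2 gene higher. Of 474 values of the other named genes, 459 kept direction and call, 9 no longer passed and 6 reversed. List counts outside TMM were added after seeing the data.

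Leaving out 1 library at a time, 1618 to 1620 genes passed, 1063 to 1065 lower and 555 higher. CCND2 lay between -1.50 and -1.34, CDKN1A between 1.41 and 1.56, CDKN2C between 1.10 and 1.25, BTG2 between 1.33 and 1.42, GADD45G between -1.07 and -0.96 and BAX between 1.13 and 1.28, and the log2 ratio of CCND2 to CDKN1A changed by -2.93 to -2.77. With a replicate block CCND2 was at -1.41 and CDKN1A at 1.46, and 1620 genes passed; it changed no call of the 6 genes. Same-numbered libraries had correlations of 0.033, 0.162 and -0.017 in their deviations from the group means, so the numbers were not taken as pairs.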
